A study of Mus musculus with 14 samples.

Results

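The genes described here are 10 core genes of the Notch pathway, chosen by name from the 55335 genes of each count table. They are the receptors Notch1 and Notch2, the ligands Jag1, Jag2, Dll1 and Dll4, the receptor-modifying enzyme Lfng, the transcription factor Rbpj, and the target genes Hes1 and Nrarp. Notch signals between touching cells: a ligand of the Jagged or Delta-like family on one cell binds a Notch receptor on its neighbour, and the receptor is then cut first by an ADAM protease and next by gamma-secretase. The freed intracellular domain enters the nucleus, joins the DNA-binding protein RBPJ and switches on genes such as Hes1 and Nrarp. In the crypts of the intestine, Notch activity keeps stem cells undifferentiated and steers their daughters to the absorptive fate, while low Notch activity lets Atoh1 act and gives secretory cells.

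RNA was sequenced from mouse intestinal stem cells sorted for the EGFP signal of the Lgr5 locus, in a series whose title links chronic stress with stem cell ageing. In the Chrm3 experiment every mouse carried Lgr5CreERT2-IRES-GFP and Chrm3flox/flox, so that Cre was driven by the Lgr5 locus, and Chrm3 encodes the M3 muscarinic acetylcholine receptor. The WT groups received vehicle and the KO groups TAM (tamoxifen), injected for 3 days before the ES modelling. Both genotypes were studied under NT and under ES (WT NT, WT ES; KO NT, KO ES; 2 libraries each), and the labels give neither the age of these mice nor the full forms of ES and NT. In the ageing experiment, mice with Lgr5CreERT2-IRES-GFP and no Chrm3 allele named in the labels were 2 months (young) or 18 months old (old), with 3 libraries each, all labelled NT. Genotype and injection changed together, so a difference between KO and WT cannot be told apart from one between TAM and vehicle.

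Total counts per library ran from 26.7 to 36.9 M, and mitochondrial genes took 6.12% to 8.74% of them, the highest share being that of KO NT replicate 2. All 8 genes of the stem cell marker list were counted in every group. They are Lgr5, Olfm4, Ascl2, Smoc2 and Axin2, with the general epithelial genes Epcam, Cdh1 and Vil1. Of the endothelial markers, 4 of 6 (Cdh5, Kdr, Emcn and Cldn5) were at 0 in every library. Summed fibroblast and muscle markers reached at most 0.26 CPM (counts scaled to the effective size of the library). Markers of other cell types were present. Over the libraries Paneth markers summed to 6240 to 10099 CPM, goblet markers to 2280 to 9391 and immune markers to 17.1 to 78.9. The levels below are those of the whole sorted fraction. In NT, Chrm3 had 9.24 and 7.71 CPM in KO and 11.2 and 13.0 in WT (log2 fold change -0.50 ± 0.16, edgeR adjusted p = 0.1195). In ES it had 8.13 and 6.04 CPM in KO against 11.6 and 10.9 in WT (-0.68 ± 0.17, edgeR adjusted p = 0.03627). Which part of the gene is deleted is not stated in the labels. The KO NT libraries were the least alike of the replicate pairs, at 25.8 (chi-square of their counts over its degrees of freedom) against 3.59 for WT NT, and calls of the 10 genes and counts of the other pathway genes that changed without either of them are given below.

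All 10 genes passed the filter on low counts in both tables. To compare one gene with another, the level was divided by the length of the gene's exons (RPKM, that is CPM per kilobase of exon). Hes1, a repressor of the secretory program and a direct Notch target, had the highest RPKM of the 10 in all 6 groups, with means from 32.6 in young to 44.2 in WT ES. Nrarp, a target that in turn damps Notch signalling, and Dll1, a Delta-like ligand, took the next places with 16.4 to 24.4 and 13.6 to 23.8 RPKM. Nrarp stood above Dll1 in 5 groups and below it in old, and in each group the libraries of the higher gene lay above those of the lower.

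The middle of the order held Notch1, Lfng, Notch2 and, in all groups but KO NT, Dll4. Notch1, the main receptor of crypt stem cells, had mean RPKM from 7.13 in WT ES to 11.2 in KO NT, and Lfng, a glycosyltransferase that tunes which ligands Notch responds to, from 6.97 to 10.1. Notch1 and Lfng overlapped in their libraries in WT ES, young and old and did not overlap in WT NT, KO NT and KO ES. Dll4, a Delta-like ligand carried by Paneth cells beside the stem cells, ranged from 4.35 RPKM in KO NT to 8.27 in old, and in WT ES its libraries overlapped with those of Notch1. Notch2, which acts beside Notch1, ranged from 5.04 to 5.87 RPKM.

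At the lower end, Rbpj had mean RPKM from 4.58 to 5.02 and the Jagged ligand Jag1 from 4.03 to 4.47. Those neighbours overlapped in KO NT, KO ES, young and old. Jag2, the second Jagged ligand, was lowest in every group, at 0.532 to 1.34 RPKM, and none of its libraries reached those of the next gene. Hes1 and Jag2 thus marked the ends of the order in all 6 groups, as the plot of levels per exon length shows.

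**Figure D1:**
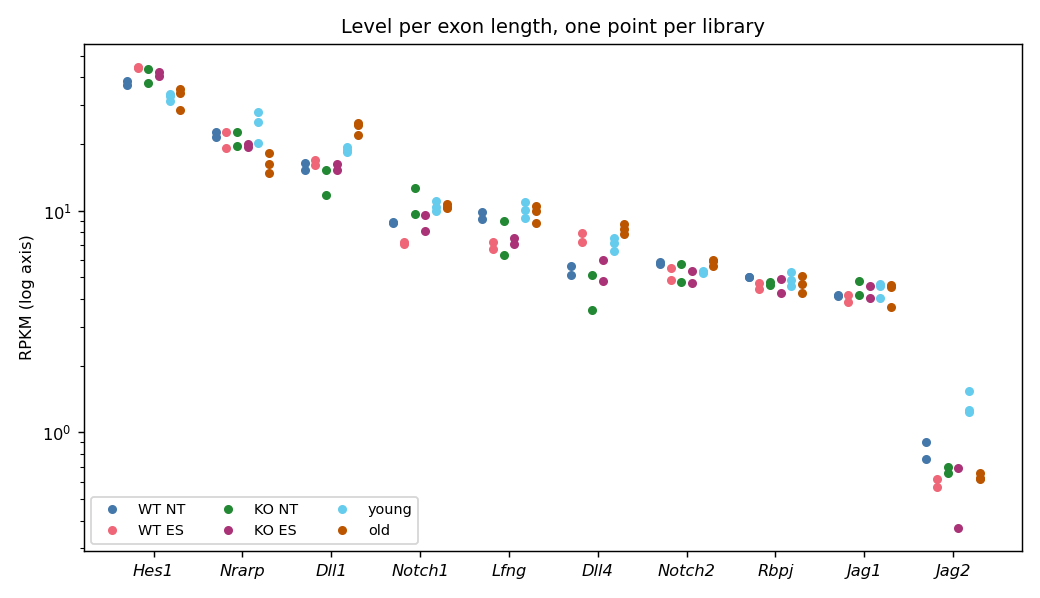
RPKM (log axis) of the 10 Notch genes, ordered by their mean, with 1 point per library and colours for the 6 groups. Hes1 lies at the top and Jag2 at the bottom in every group, and Nrarp and Dll1 change places in old.

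On GRCm38, Notch1 (chromosome 2, 26457903 to 26516663), Nrarp (chromosome 2, 25180758 to 25183339) and Dll4 (chromosome 2, 119325784 to 119335962) share a chromosome with Jag1 (chromosome 2, 137081456 to 137116644). Dll1 lies on chromosome 17 (15367354 to 15376872), Jag2 on chromosome 12 (112907819 to 112929776), Hes1 on chromosome 16 (30064384 to 30067796), Notch2 on chromosome 3 (98013527 to 98150361), and Lfng (140607320 to 140615545) and Rbpj (53466152 to 53657362) on chromosome 5. Counts were made over whole genes, and some exons are shared with another gene. Nrarp shares 2051 bases with the antisense gene Gm38287, which had 0 counts in every library, and Dll4 shares 214 bases with the antisense gene Gm14207, which had 69 to 142. Dll1 shares 867 bases with the antisense gene A930024N18Rik, which is not among the genes of either count table. Notch1 shares 1068 bases with 0610009E02Rik (2 to 25 counts) and 414 with Gm13568 (0 to 1), both on the opposite strand. Notch2 shares 541 bases with Gm42820 on its own strand, which had 2 to 11 counts. No source used here says whether counting used the strand.

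RBPJ binds a short core, TGGGAA, and the letters GTGGGAA are the longer form searched. Both were looked for on both strands in the 250 bases before each RefSeq transcription start (build GRCm38.p6), where 9 of the 10 genes matched an entry by symbol and Hes1 is named only. The core was present before Lfng, at 2 places that begin 135 and 108 bases before the start, and before Rbpj. The one at 108 is part of a GTGGGAA. Of 32851 such windows over all genes, 21.6% held the core, 2.77% held it at least 2 times and 5.42% held GTGGGAA. The core was not among the letters of the windows for Notch1, Notch2, Jag1, Jag2, Dll1, Dll4 and Nrarp, which says nothing of RBPJ binding elsewhere. Shown here, from 5′ to 3′ on each gene's own strand, are the window of Lfng (chr5:140607091-140607340, plus strand), which holds both cores and whose last bases lie inside the GENCODE gene, and those of Nrarp (chr2:25180508-25180757, plus strand) and Dll1 (chr17:15376933-15377182, minus strand), which differed with age in opposite directions. Capitals mark TGGGAA, or TTCCCA where the same core lies on the other strand.
Lfng: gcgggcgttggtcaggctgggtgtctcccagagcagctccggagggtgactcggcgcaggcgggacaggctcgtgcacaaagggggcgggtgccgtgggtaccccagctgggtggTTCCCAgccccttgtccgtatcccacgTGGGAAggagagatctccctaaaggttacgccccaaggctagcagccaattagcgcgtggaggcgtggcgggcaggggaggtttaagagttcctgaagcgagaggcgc
Nrarp: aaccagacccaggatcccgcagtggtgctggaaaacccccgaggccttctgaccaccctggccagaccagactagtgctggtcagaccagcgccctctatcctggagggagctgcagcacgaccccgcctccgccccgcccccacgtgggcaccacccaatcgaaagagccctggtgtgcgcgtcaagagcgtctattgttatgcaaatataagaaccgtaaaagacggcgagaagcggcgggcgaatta
Dll1: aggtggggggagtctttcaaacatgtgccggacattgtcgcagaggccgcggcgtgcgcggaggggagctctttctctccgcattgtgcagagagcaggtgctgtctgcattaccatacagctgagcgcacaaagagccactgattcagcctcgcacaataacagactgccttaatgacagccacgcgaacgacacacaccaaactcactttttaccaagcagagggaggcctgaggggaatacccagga

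Old against young stem cells gave the clearest differences. The ligand Jag2 and the target gene Nrarp were lower in old, and the ligand Dll1 was higher, while Notch1 and Hes1 had nearly the same mean in both ages. In the young libraries Jag2 had 10.6, 8.61 and 8.79 CPM and in the old ones 4.34, 4.29 and 4.56 (young 9.35 ± 1.13 and old 4.40 ± 0.15, SD, n = 3 each). Every old library was below every young one, and Jag2 fell 2.12-fold (log2 fold change -1.09 ± 0.15, edgeR's quasi-likelihood test, Benjamini-Hochberg adjusted p = 0.001509). Behind these levels lay 303 to 352 counts in young and 144 to 152 in old. In sorted bulk cells, fewer cells of a type that carry a transcript and less of it per cell cannot be told apart.

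Dll1, whose product on a neighbouring cell activates the receptors, had 82.1, 79.0 and 77.5 CPM in young and 103, 105 and 92.8 in old. The groups did not overlap, and Dll1 rose by 0.34 ± 0.06 on the log2 scale, a 1.26-fold higher level (edgeR adjusted p = 0.008844). Nrarp had 72.0, 64.6 and 52.2 CPM in young and 42.1, 46.8 and 38.2 in old. Its groups did not overlap either, though the young libraries spread widely, and Nrarp fell 1.48-fold (log2 fold change -0.57 ± 0.11, edgeR adjusted p = 0.0112). The call of Dll1 was lost without young replicate 2 (edgeR adjusted p = 0.05356) or old replicate 1 (0.05814), and that of Nrarp without the same libraries (0.05537 and 0.05963) or with no filter on low counts (0.08124). Jag2 passed in all 12 alternatives, with adjusted p up to 0.01241.

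**Figure D2:**
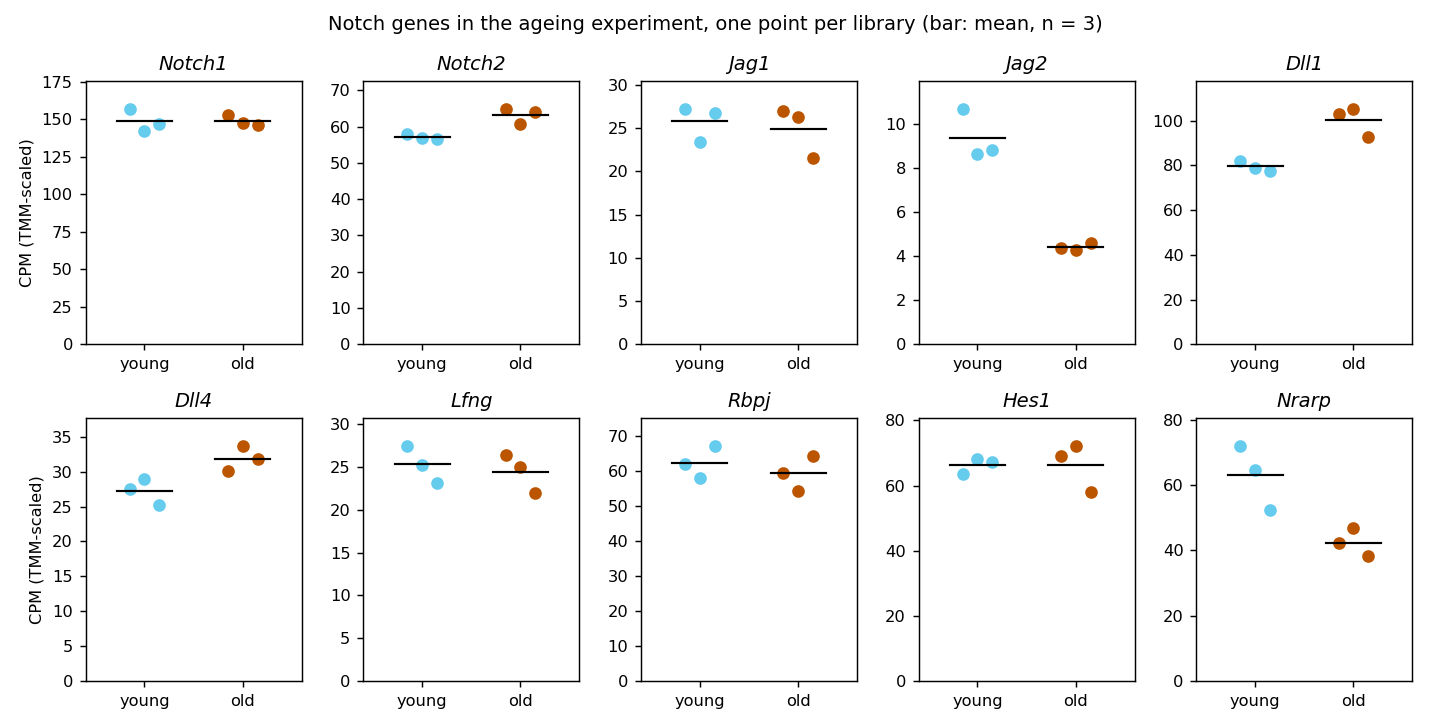
CPM after TMM scaling of the 10 Notch genes in young and old, with 1 point per library and a bar at the mean of n = 3. Jag2 and Nrarp lie lower and Dll1 lies higher in each old library than in each young one, and Notch1 and Hes1 overlap.

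The receptors did not pass. Notch1 had 157, 142 and 147 CPM in young and 153, 148 and 147 in old (log2 fold change 0.00 ± 0.06, edgeR adjusted p = 0.9911), so its groups overlapped nearly whole. Notch2 had 57.9, 57.0 and 56.7 CPM in young and 64.8, 60.8 and 64.2 in old (0.15 ± 0.06, edgeR adjusted p = 0.1824), with no overlap. Of the other ligands, Dll4 had 27.6, 29.0 and 25.3 CPM in young against 30.1, 33.7 and 31.8 in old (0.23 ± 0.08, edgeR adjusted p = 0.1359), and Jag1 23.5 to 27.2 against 21.5 to 27.0. The antisense neighbour of Dll4, Gm14207, had a log2 fold change of -0.06 ± 0.19 (edgeR adjusted p = 0.9045).

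Hes1, the standard readout of Notch activity, had 63.6, 68.2 and 67.3 CPM in young and 68.9, 72.2 and 58.1 in old, a log2 fold change of 0.00 ± 0.08 (edgeR adjusted p = 0.9942). The old libraries ran both above and below all young ones. The other target, Nrarp, fell, as given above, so the pair of target genes did not move together. Rbpj (-0.07 ± 0.08) and Lfng (-0.05 ± 0.10) had overlapping groups.

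In all, 3 of the 10 genes passed the test between the ages, 1 higher and 2 lower, where 7.84% of the 16807 tested genes passed (4.42% higher and 3.42% lower). Groups did not overlap for 5 of the 10, against 26.4% of all tested genes. The median log2 fold change of the 10 was -0.02, against -0.00 over all tested genes. DESeq2 and limma-voom each passed 3 of the 10 as well.

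The rest of the pathway was described by 7 further lists with 59 genes, of which 52 were tested between the ages and 6 passed, 4 higher and 2 lower (11.5%, against 7.84% of all tested genes). Leaving out 1 library gave 2 to 5, the lowest without young replicate 2 or old replicate 1. Dtx1, a ubiquitin ligase that binds the Notch intracellular domain, had 0.756, 1.68 and 1.23 CPM in young and 3.71, 4.09 and 3.69 in old and rose by 1.64 ± 0.26 (edgeR adjusted p = 0.003559). Neurog3, the factor that starts the enteroendocrine lineage and is held down by Notch, had 7.86, 7.48 and 7.14 CPM in young and 10.9, 11.5 and 14.0 in old, and rose by 0.69 ± 0.13 (edgeR adjusted p = 0.009747). Both rises passed in all 12 alternatives. Enteroendocrine markers were higher as well, with 4 of 6 passing and summed levels of 296 to 422 CPM in old against 203 to 227 in young. Their part in the Neurog3 result was not tested.

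Heyl, a Hes-related repressor, had 9 to 15 counts in young and 22 to 54 in old and rose by 1.90 ± 0.49. Crebbp, a histone acetyltransferase of the Notch transcription complex, rose by 0.27 ± 0.07. Hes6, a Hes family member that opposes Hes1, fell by 0.35 and the secretory factor Spdef by 0.37 on the log2 scale. Leaving out 1 library ended the call of Heyl in each case but old replicate 2, and that of Spdef in each case but young replicate 1. With no filter on low counts all 4 calls were lost. Leaving out 1 library ended the call of Crebbp without young replicate 1 or 2 or old replicate 1 or 3, and that of Hes6 without young replicate 1 or 2 or old replicate 1, with edgeR adjusted p up to 0.1625 for Heyl, 0.1674 for Crebbp, 0.1028 for Hes6 and 0.1407 for Spdef over all alternatives.

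Markers of other cell types, and early response genes, differed with age in the sorted fraction. Immune markers summed to 69.6 to 78.9 CPM in old against 17.1 to 24.9 in young, with 5 of 5 tested markers higher, and tuft markers to 83.9 to 86.3 against 149 to 185, with 5 of 6 lower. Early response genes, which are known to respond when cells are handled, were higher in 8 of 8 cases, at 3724 to 4340 CPM against 2388 to 2483. Among cells of the secretory and absorptive lineages, Paneth markers were lower in 3 of 6 cases (7370 to 9422 CPM in old against 8770 to 9249 in young, which overlap), goblet markers were higher in 2 of 6 and lower in 2 (8076 to 8257 against 6096 to 7326), and enterocyte markers were higher in 2 of 7 (691 to 913 against 653 to 902). Spdef, given above, is itself among the goblet markers. In the stem cell list 1 of 8 genes was lower (12900 to 15550 CPM in old against 13782 to 13985 in young, which overlap). Mean CPM was 32.4 in young and 21.0 in old for Ascl2, and 103 and 86.5 for Lgr5. The log2 fold change was below 0 for 6 of the 8 and above 0 for 2. The part of these marker differences in the levels of Jag2, Nrarp and Dll1 was not tested. Nor was their part in the other pathway genes, among them Dtx1 and Heyl, which had low levels. Endothelial markers, of interest because vessels carry Notch ligands, summed to at most 1.27 CPM in old and 0.812 in young.

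ES was compared with NT first in WT. By edgeR 0 of the 10 genes passed (4 with an unadjusted p under 0.05, by DESeq2 1 and by limma-voom 0), against 3.48% of the 17364 tested genes, and 18.6% with an unadjusted p under 0.05. Means were lower after ES for 7 of the 10 genes and higher for Dll1, Dll4 and Hes1. The 4 just counted are Notch1 and Lfng, with lower means, and Dll4 and Hes1, with higher ones. Notch1 had 126 and 127 CPM in WT NT and 103 and 100.2 in WT ES (log2 fold change -0.31 ± 0.12, edgeR adjusted p = 0.1731), and Lfng 22.9 and 24.6 against 16.8 and 18.1 (-0.44 ± 0.15, 0.1304). Neither gene overlapped between the groups.

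Dll4 had 21.7 and 19.7 CPM in WT NT and 27.8 and 30.4 in WT ES (log2 fold change 0.49 ± 0.16, edgeR adjusted p = 0.1213). Hes1 had 78.1 and 75.2 CPM in WT NT and 89.7 and 90.5 in WT ES (0.23 ± 0.08, edgeR adjusted p = 0.1308). Both were higher in each ES library. Jag2 had 6.31 and 5.27 CPM against 4.29 and 3.93 (-0.49 ± 0.25, edgeR adjusted p = 0.3403), on 105 to 201 counts, which give it the widest standard error of the 10 genes. For Jag1, Dll1 and Nrarp the groups overlapped, with log2 fold changes from -0.07 to 0.07.

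Groups did not overlap for 7 of the 10 genes, where 52.8% of all tested genes did the same. The 4 genes named above, Notch1, Dll4, Hes1 and Lfng, passed when only the WT libraries were fitted (adjusted p from 0.003002 to 0.017), and when either KO NT library was left out (0.02105 to 0.04854 without replicate 1 and 0.02207 to 0.04427 without replicate 2). More of all tested genes passed in each of these fits than in the fit reported, with 1875 against 605 when only the WT libraries were fitted. Each of these fits also changes the scaling and the genes tested, and the cause of the change was not tested.

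**Figure D3:**
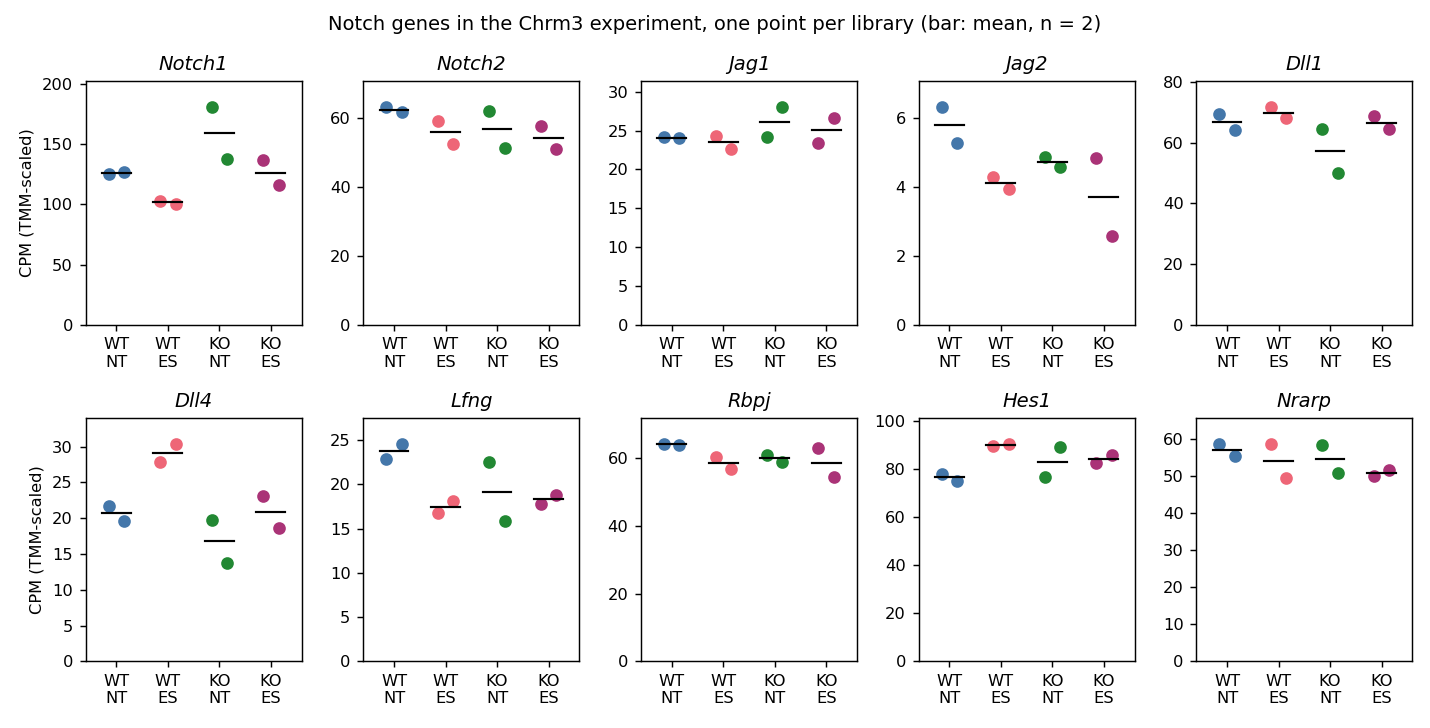
CPM after TMM scaling of the 10 Notch genes in the 4 groups of the Chrm3 experiment, with 1 point per library and a bar at the mean of n = 2. In WT, Notch1 and Lfng lie lower and Dll4 and Hes1 higher in both ES libraries, and the KO NT libraries are far apart for Notch1, Dll1, Dll4 and Lfng.

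Among 54 other tested pathway genes, ES in WT gave 2 higher and 2 lower (7.41%, against 3.48% of all tested genes). Spdef, a transcription factor of goblet and Paneth cells, rose by 0.54 ± 0.10 and Dtx3l, of the Deltex family, by 0.34 ± 0.07, while Hes6 fell by 0.47 and the stem cell gene Olfm4 by 0.34 on the log2 scale. The edgeR adjusted p was 0.01756 for Spdef, 0.03507 for Dtx3l, 0.02188 for Hes6 and 0.03349 for Olfm4. The calls of Spdef, Hes6 and Olfm4 were lost without any one of the 4 WT libraries, and that of Dtx3l without any of them but WT ES replicate 2, with adjusted p from 0.05491 to 0.2727. With no filter on low counts all 4 were lost (0.07147 to 0.1136). Without either KO NT library 4 were higher and 3 lower, the added ones being Kat2b and Neurl1b (higher) and Dtx4 (lower), which were named after their values were seen, and fitting only the WT libraries gave 5 and 3. Atoh1, the factor that commits cells to the secretory fate, had 21.3 and 19.2 CPM in WT NT against 26.5 and 24.1 in WT ES (0.32 ± 0.11, edgeR adjusted p = 0.1339). Goblet markers summed to 9174 to 9391 CPM in WT ES against 4564 to 4670 in WT NT, with 6 of 6 higher, and stem cell markers to 11656 to 12167 against 14212 to 14426, with 5 of 8 lower. Mean CPM went from 131 in WT NT to 94.9 in WT ES for Lgr5 and from 36.6 to 22.0 for Ascl2. It went from 307 to 257 for Smoc2 and from 409 to 277 for Axin2. The general epithelial genes of that list changed less, with Epcam at 1397 and 1378, Cdh1 at 1161 and 1132, and Vil1 at 553 and 605. Paneth markers summed to 9432 to 10055 CPM against 7834 to 7929, with 3 of 6 higher. Enteroendocrine markers were higher in 3 of 6 cases (237 to 243 CPM against 135 to 148) and enterocyte markers in 2 of 7 (805 to 1053 against 498 in both libraries). Spdef is itself among these goblet markers. Olfm4 is among the stem cell markers and makes up most of their sum, with means of 10325 CPM in WT NT and 8146 in WT ES. The part of the marker lists in the Notch gene levels was not tested.

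In KO, ES was set against NT in the same way, and the spread between the KO NT libraries was wide. Notch1 had 181 and 138 CPM under NT and 137 and 116 under ES (log2 fold change -0.34 ± 0.11, edgeR adjusted p = 0.3688). It was the only one of the 10 genes whose groups did not overlap, against 33.3% of all tested genes. By edgeR 0 of the 10 passed (1 with an unadjusted p under 0.05, by DESeq2 0 and by limma-voom 0), against 0.513% of all tested genes, and 8.6% with an unadjusted p under 0.05. Without KO NT replicate 2, the library with the higher mitochondrial share, Notch1 passed (-0.52, adjusted p = 0.02456), and without KO NT replicate 1 Dll1 passed (0.42, 0.04809).

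Of the other ligands, Dll4 had 19.8 and 13.8 CPM under NT and 23.1 and 18.6 under ES (log2 fold change 0.30 ± 0.16, edgeR adjusted p = 0.6798), and Dll1 64.6 and 49.9 against 68.8 and 64.3 (0.22 ± 0.11, 0.6423). Both overlapped between the groups. Hes1 had 76.7 and 89.1 CPM against 82.4 and 85.9 (0.02 ± 0.08, edgeR adjusted p = 0.9853), and Lfng 22.5 and 15.8 against 17.8 and 18.8. The KO ES values of both lay between the KO NT values. In the rest of the pathway 1 of the 54 genes passed (1.85%): Atoh1 rose, from 11.8 and 11.9 CPM to 18.6 and 21.8 (0.77 ± 0.11, edgeR adjusted p = 0.02001), a call lost without either WT NT library (0.05651 and 0.05998) or KO ES replicate 2 (0.1507), when only the KO libraries were fitted (0.09382) and with no filter on low counts (0.1574). Goblet markers were higher in 5 of 6 cases (3948 to 3957 CPM against 2280 to 2406) and Paneth markers in 3 of 6 (9889 to 10099 against 6240.0 to 7824), and enterocyte markers were lower in 3 of 7 (364 to 474 against 443 to 840). Their part in the Atoh1 rise was not tested.

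Whether ES acted differently by genotype was tested as the ES effect in KO minus that in WT. By edgeR 0 of the 10 genes passed (0 with an unadjusted p under 0.05, by DESeq2 0 and by limma-voom 0), against 0.109% of all tested genes and 11.5% at an unadjusted p under 0.05. The differences farthest from 0 were those of Lfng (0.37 ± 0.21, edgeR adjusted p = 0.5499) and Hes1 (-0.21 ± 0.11, 0.5091). For Notch1 the difference was -0.02 ± 0.16 and for Dll4 -0.18 ± 0.23. These errors are too wide to show that the responses of the genotypes were alike. Of the 54 other pathway genes 0 passed by edgeR (11 with an unadjusted p under 0.05, by DESeq2 0 and by limma-voom 0). Without KO NT replicate 1 there was 1, Olfm4, higher.

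KO was then compared with WT within each treatment. The WT NT and KO NT libraries also serve in the ES comparisons above, so the values are not independent of them. In NT, Notch1 had 181 and 138 CPM in KO against 126 and 127 in WT (log2 fold change 0.34 ± 0.11, edgeR adjusted p = 0.1455), and in ES 137 and 116 against 103 and 100.2 (0.31 ± 0.12, edgeR adjusted p = 0.1329). Each KO library was above each WT library of the same treatment. In ES, Dll4 had 23.1 and 18.6 CPM in KO against 27.8 and 30.4 in WT (-0.48 ± 0.16, edgeR adjusted p = 0.09218), again without overlap. Gm14207, the antisense neighbour of Dll4, had log2 fold changes of -0.61 ± 0.31 in NT and -0.34 ± 0.30 in ES (edgeR adjusted p = 0.35 and 0.5544). For ES against NT its values were 0.34 ± 0.32 in KO and 0.07 ± 0.30 in WT (edgeR adjusted p = 0.883 and 0.9361). The part of shared exons in the Dll4 values was not tested.

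The values of Lfng in NT were 22.5 and 15.8 CPM in KO and 22.9 and 24.6 in WT (log2 fold change -0.30 ± 0.14, edgeR adjusted p = 0.3106). The groups did not overlap, but KO NT replicate 1 lay close to WT. In ES Lfng overlapped between the genotypes (0.07 ± 0.15). Hes1 in NT had 76.7 and 89.1 CPM in KO against 78.1 and 75.2 in WT (0.11 ± 0.08), and in ES 82.4 and 85.9 against 89.7 and 90.5 (-0.10 ± 0.08). Rbpj and Nrarp had log2 fold changes from -0.10 to 0.00 between the genotypes.

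In NT 0 of the 10 genes passed by edgeR (1 with an unadjusted p under 0.05, by DESeq2 1 and by limma-voom 0), against 4.47% of all tested genes (17.7% with an unadjusted p under 0.05), and the groups did not overlap for 4 of the 10, against 48% of all tested genes. In ES 0 of the 10 passed (2 with an unadjusted p under 0.05, by DESeq2 1 and by limma-voom 0), against 7.56% (22.9% with an unadjusted p under 0.05), and 3 of the 10 did not overlap, against 53.3%. In NT, Notch1 passed without KO NT replicate 2 (0.53, adjusted p = 0.007584), and Dll1 (-0.42, 0.02482) and Lfng (-0.58, 0.01865) passed without KO NT replicate 1. In ES, Notch1 and Dll4 passed when only the ES libraries were fitted (edgeR adjusted p = 0.04828 and 0.0298). In that fit 1448 of all tested genes passed, against 1312 in the fit reported. Both genes also passed without either KO NT library, where more of all tested genes passed as well.

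**Figure D4:**
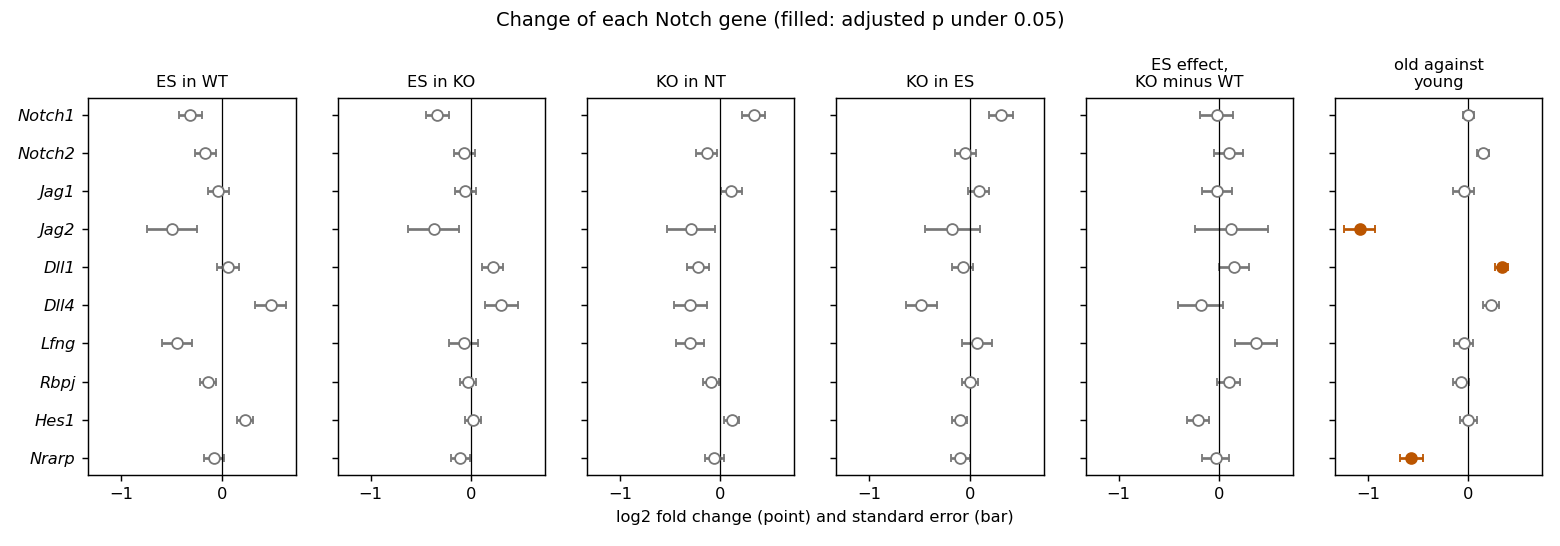
Log2 fold change (point) and standard error (bar) of the 10 Notch genes in the 6 comparisons, with filled points for an adjusted p under 0.05. The 3 filled points, Jag2, Dll1 and Nrarp, are all in old against young, and the intervals of Jag2 are the widest in every panel.

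Between the genotypes, 5 of the 54 other pathway genes fell in KO NT and 0 rose (by DESeq2 1 rose, by limma-voom 0), that is 9.26% against 4.47% of all tested genes, and 3 of the 5 were secretory fate genes that Notch holds down in crypts. Spdef had 22.6 and 22.3 CPM in WT and 11.9 and 12.6 in KO and fell in KO (log2 fold change -0.87 ± 0.11, edgeR adjusted p = 0.001116), a call that held in all 15 alternatives. Atoh1 had 21.3 and 19.2 CPM in WT and 11.8 and 11.9 in KO and fell by 0.77 on the log2 scale (edgeR adjusted p = 0.003983, and 0.07087 without WT NT replicate 1). Gfi1, a zinc finger factor of secretory cells, fell by 0.90 on the log2 scale (0.04363), and Neurog3 had a log2 fold change of -0.83 ± 0.28 (0.1466). The other falls were those of Mib1 (-0.35 ± 0.06), the ubiquitin ligase that activates Delta and Jagged ligands, and of Psen2 (-0.41 ± 0.09), a catalytic subunit of gamma-secretase.

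Of these calls, that of Gfi1 was lost in 9 of 15 alternatives, among them leaving out any one WT or KO NT library (adjusted p up to 0.2617). That of Psen2 was lost in 8, among them leaving out any one WT library or KO NT replicate 2 (up to 0.2401), and that of Mib1 without WT NT replicate 1 (0.1134) or 2 (0.145) and with no filter on low counts (0.05786). Leaving out 1 WT library left 1 to 3 falls, the lowest number without WT NT replicate 1, and no filter on low counts left 2. Without KO NT replicate 2 there were 3, and Olfm4 rose. Goblet markers were lower in KO NT in 6 of 6 cases (2280 to 2406 CPM against 4564 to 4670) and tuft markers in 6 of 6 (29.9 to 36.5 CPM against 76.8 to 79.0). Paneth markers were lower in 2 of 6 cases, enteroendocrine markers in 1 of 6, and enterocyte markers were higher in 1 of 7. Early response genes were higher in 8 of 8 (2688 to 4036 CPM against 1366 to 1381). Spdef is itself among the goblet markers. The part of the marker differences in the pathway genes was not tested.

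In ES, KO had 2 of the 54 genes higher and 2 lower than WT, a share of 7.41% that is close to the 7.56% of all tested genes. Without either KO NT library 3 were lower, the added one being Ncor1, and without replicate 2 of WT ES or of KO ES 1 was higher and 1 lower. Spdef fell by 0.88 on the log2 scale (33.9 and 31.3 CPM in WT, 19.1 and 16.4 in KO, edgeR adjusted p = 0.000643), and Olfm4, which Notch sustains in stem cells, rose by 0.46 ± 0.07 (8317 and 7975 CPM in WT, 11585 and 10878 in KO, edgeR adjusted p = 0.004118). Both passed in all 15 alternatives. Hes6 rose by 0.46 ± 0.09 (edgeR adjusted p = 0.01147) and Mib1 fell by 0.25 on the log2 scale (0.03683), and the former call was lost without replicate 2 of WT ES (0.101) or of KO ES (0.1116). The call of Mib1 was lost in 7 of 15 alternatives, among them leaving out any one WT or KO ES library (adjusted p up to 0.1911). Goblet markers were lower in KO ES in 6 of 6 cases (3948 to 3957 CPM against 9174 to 9391), enterocyte markers in 6 of 7 (364 to 474 against 805 to 1053), enteroendocrine markers in 5 of 6 (140 to 146 against 237 to 243), tuft markers in 4 of 6 (42.3 to 46.5 against 80.9 to 83.9) and Paneth markers in 2 of 6. Stem cell markers were higher in 3 of 8 cases (14785 to 15336 CPM against 11656 to 12167), and early response genes in 3 of 8. Means of Lgr5, Olfm4, Ascl2, Smoc2 and Axin2 were all higher in KO ES than in WT ES. Of the general epithelial genes in the stem cell list, Epcam (1392 against 1378 CPM) and Cdh1 (1137 against 1132) were close. The mean of Vil1 was lower (528 against 605). Olfm4 is itself among the stem cell markers and makes up most of their sum, and Spdef is among the goblet markers. Neither list is therefore separate from these genes. The part of the marker differences in Spdef, Olfm4, Hes6 and Mib1 was not tested.

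**Figure D5:**
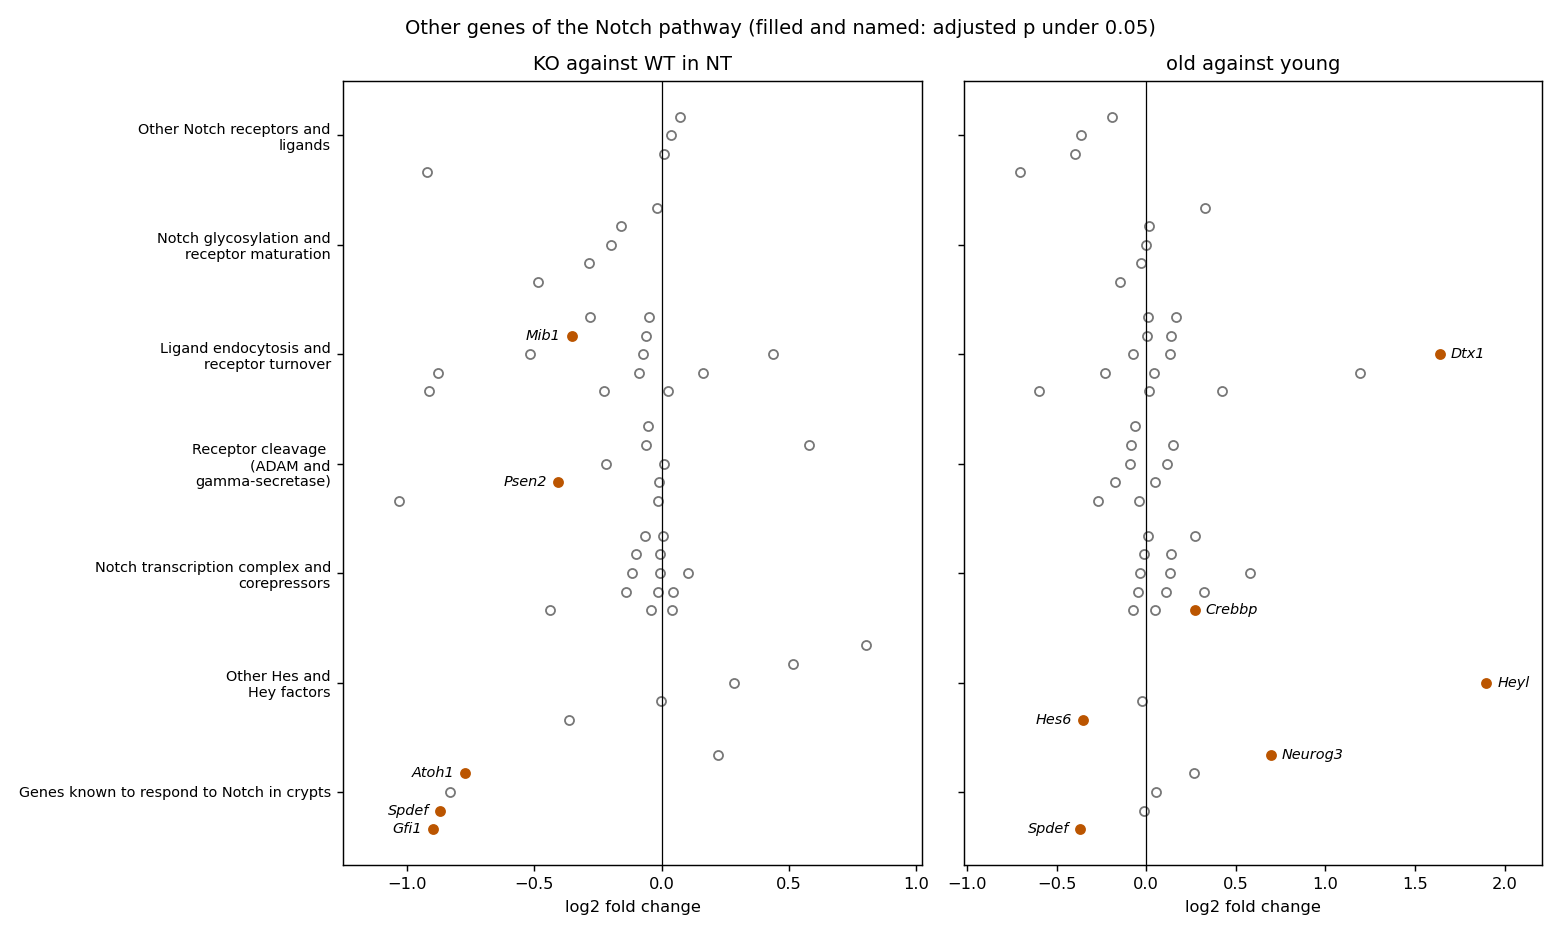
Log2 fold changes of the tested genes in the 7 other Notch pathway lists, 1 point per gene, for KO against WT in NT (left) and old against young (right), with filled and named points for an adjusted p under 0.05. On the left the 5 named genes lie below 0, 3 of them among genes that respond to Notch in crypts, and on the right 4 lie above 0 and 2 below.

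For Notch1 and Hes1, the genes with the most similar pattern over the 8 libraries of the Chrm3 experiment were named by Pearson's r of log2(CPM + 1), out of 9694 genes of at least 10 CPM. They were Mtrr (0.981), Cps1 (0.975) and Kmt2b (0.959) for Notch1, and Slc28a3 (0.974), Elf3 (0.973) and Pcsk5 (0.972) for Hes1. These values describe 8 libraries that share group, depth and scaling, and the highest r was at least 0.956 for each of the 10 genes.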

How the data were processed

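The authors deposited unnormalised counts, 1 whole number per Ensembl gene and library, in a Chrm3 table (8 libraries) and an ageing table (6 libraries). Per the labels' protocols, RNA was extracted with Trizol and strand-specific TruSeq libraries were built. The submitters' processing notes name mm10 and FastQC 0.11.2. No source used here gives the aligner, the counter or the strand setting. Columns named Ctrl were read as NT. The labels do not say whether libraries came from different animals, so p-values reflect only how these libraries vary, which may be technical.

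Genes were filtered with filterByExpr and counts scaled by TMM in edgeR 4.0.16. Its quasi-likelihood test was run with one mean per group, separately in each table and with 1 shared spread over the groups of a table. The p-values were adjusted by Benjamini-Hochberg over all tested genes (17364 and 16807), and "rose", "fell" and "passed" mean an adjusted p under 0.05. The newer form of the test (legacy=FALSE) was used because earlier processing of these data had used it. It was chosen after the counts of both forms were seen, and the older form, the default of this version, calls the same number of the 10 genes in each comparison. The ± after a log2 fold change is an approximate standard error from the F statistic. CPM are after TMM scaling. RPKM is CPM per kilobase of the exon union in GENCODE M21, which holds 55154 of the 55335 identifiers and gave the positions. Promoter windows are from RefSeq (GRCm38.p6). The fit was tested on simulated data. After it missed a first criterion, on how many changed genes were recovered at any level, the criterion was restricted to genes of at least 10 CPM, so it says little about genes with low counts such as Jag2.

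The 10 genes and the gene lists were chosen with earlier results of these data known. Of the other pathway genes, those that passed are named, at most 6 per comparison by p. Named outside this rule were Atoh1 for ES in WT and Neurog3 for KO in NT, which did not pass, and genes that passed only in an alternative fit. The genes closest in pattern were named for Notch1 and Hes1; those for Dll1 are not reported here. Alternatives were RLE size factors, no count filter, limma-voom (limma 3.58.1), DESeq2 1.42.0, a replicate block, fitting only the 2 groups compared, the older form of the test (added after seeing the data), and leaving out each library. The small number of libraries limits precision.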

Additional observations from a re-analysis of the deposited data

How the results depend on the processing

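For the 10 genes, and for other pathway genes in comparisons where they passed in the fit reported, no result changed sign while it passed in either fit. The signs of the marker genes, of Chrm3 and of the other named genes were not compared in this way. Among the 10 genes, 828 of the single-gene results under alternatives kept their side of the threshold, 27 passed newly and 5 were lost. With DESeq2 1 of the 10 genes passed for ES in WT (Dll4, adjusted p = 0.04352), 1 for KO in NT (Notch1, 0.04448) and 1 for KO in ES (Dll4, 0.0392). Fitting only the 2 groups compared gave 4 for ES in WT and 2 for KO in ES. When each library was left out in turn, the number of the 10 genes that passed ran from 0 to 4 for ES in WT, 0 to 1 for ES in KO, 0 to 2 for KO in NT, 0 to 2 for KO in ES, 0 to 0 for the difference of the ES effects and 1 to 3 for old against young. The KO NT libraries, which are in neither group of ES in WT or KO in ES, enter there through the shared spread, the scaling and the genes tested. Which of these changed the calls was not tested.

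Counts over all genes moved more. With no count filter they were 114 for ES in WT, 8 for ES in KO, 317 for KO in NT, 593 for KO in ES, 0 for the difference and 666 for old against young, where more genes enter the adjustment. DESeq2 gave 1028, 226 and 211 for ES in WT, ES in KO and the difference. For the difference limma-voom gave 8 and the older form of the test 11, against 19 in the fit reported. Fitting only the 2 groups gave 1875 for ES in WT and 24 for ES in KO. Leaving out a library gave 23 to 1209 for ES in WT, 11 to 278 for ES in KO, 145 to 848 for KO in NT, 375 to 1936 for KO in ES, 0 to 363 for the difference and 636 to 1485 for old against young.

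Libraries of the same replicate number did not all deviate together. In the ageing table the correlations of their deviations were 0.00454, 0.0837 and 0.0802, young replicate 1 correlated best with old replicate 2, and in the Chrm3 table they ran from -0.00832 to 0.103. The labels do not say that a number marks a shared animal or batch. With a replicate block 1 of the 10 genes passed for KO in ES (Dll4, adjusted p = 0.04197), and the counts over all genes were 970, 206, 104 and 2019 for ES in WT, ES in KO, the difference and old against young. With the block 7 of the other pathway genes were higher and 3 lower for old against young. Jag2, with 91 to 352 counts, has the least depth of the 10 genes, and small differences in it were not detectable with 2 libraries a group.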
